A study of Mus musculus with 6 samples.

Results

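The phosphofructokinases, the PFKFB enzymes and Tigar were followed across 3 groups of cultured mouse mesoderm explants through 8 genes: Pfkl, Pfkm, Pfkp, Pfkfb1, Pfkfb2, Pfkfb3, Pfkfb4 and Tigar. They were chosen by name, as the rows whose symbol equals 1 of these 8 in the deposited tables, of 46078 genes in all. All 8 had enough counts to be tested, among 15568 tested genes.

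Phosphofructokinase commits sugar to glycolysis by adding a phosphate to fructose 6-phosphate. Its main activator in animal cells is fructose 2,6-bisphosphate, which the PFKFB enzymes both make and break down, since each carries a kinase and a bisphosphatase domain. TIGAR, named as a p53-induced regulator of glycolysis and apoptosis, has a bisphosphatase domain only, and is known to lower this activator and to send sugar towards the pentose phosphate pathway. PFKFB3 has a kinase activity far above its bisphosphatase activity, is induced by hypoxia, and is the protein that YZ9 is known to inhibit.

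Explants of mesoderm, the germ layer that forms at the primitive streak, came from mouse embryos at E7.25 and had 3 to 4 h on fibronectin to settle before culture. There were 2 libraries of polyadenylated RNA in each of 3 groups: control explants, explants given 1 µM PD for 16 h, and explants given 10 µM YZ9 for 16 h. PD is the labels' name for an inhibitor that they do not spell out, and they do not say whether controls received a vehicle. All groups carry the genotype label WT, whereas the series description names a TCF/Lef:H2B-GFP reporter strain. Culture lasted 27 h by the growth protocol but 24 h by the series description. Nothing in the labels says whether explants were pooled or whether replicates stand for separate cultures. Replicates of PD and of YZ9 differed in sex by their counts (below), so they came from different embryos, whereas both controls were male. The spread behind each p-value may still be technical for the controls.

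Libraries held 21253194 to 27810161 counts. Xist and the Y-linked genes marked both controls, PD replicate 1 and YZ9 replicate 1 as male and the replicates numbered 2 of PD and YZ9 as female, so sex was unequal between treated and control groups. Of 12 fixed mesoderm markers, 10 reached 1 CPM (counts scaled to the TMM library size) in a library, and they summed to 1516 to 2117 CPM. The early mesoderm genes Mesp1 and Tbx6 had 0 to 7 counts, whereas 7 of 7 cardiac markers were present, with sums of 1496 to 5123 CPM. Endoderm and epithelial markers (Sox17, Foxa1, Foxa2, Cldn6, Epcam and Cdh1) summed to 12.8 and 19.4 CPM in the controls, 608 and 98.5 CPM under PD, and 374 and 134 CPM under YZ9. Blood and endothelial markers summed to 1921 and 5879 CPM in the controls, 357 and 3053 CPM under PD, and 135 and 797 CPM under YZ9. The globins Hba-x and Hbb-y made up most of this sum except in YZ9 replicate 1, where they were at 2.78 and 1.21 CPM. Of its endothelial genes, Cdh5 was at 22.6 and 19.6 CPM in the controls and 23.7 and 20.6 CPM under YZ9. Pecam1 and Tie1 were below both controls under YZ9. Visceral endoderm markers stayed between 4.97 and 17.6 CPM except in PD replicate 1, at 91.1 CPM, and 4 skeletal muscle markers summed to 0 to 0.154 CPM. Epiblast and ectoderm markers summed to 6.73 to 15.8 CPM, and trophoblast markers to 4788 to 10500 CPM, mostly from the general epithelial keratins Krt8 and Krt18. Their part in the results below was not tested, and in bulk RNA fewer cells of a type and less RNA per cell cannot be told apart.

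No member of the family passed the test over all genes with either inhibitor. The differences largest relative to their SE were in the genes of phosphofructokinase itself: under YZ9, Pfkp was at 0.578 times its control level and Pfkl at 1.59 times. Under PD, 0 of 8 members had an adjusted p under 0.05 in edgeR, against 0.0964% of all tested genes, and 0 of 8 had an unadjusted p under 0.05, against 10.8%. Under YZ9, 0 of 8 passed against 0.00642% of all genes, and 1 of 8, Pfkp, had an unadjusted p under 0.05 against 11.3%. Between PD and YZ9, 0 of 8 passed against 0.122%, and 0 had an unadjusted p under 0.05 against 11.5%. DESeq2 and limma-trend also called 0 members in each comparison. Over all genes DESeq2 called 604 under PD, 509 under YZ9 and 508 between PD and YZ9, and limma-trend 20, 1 and 34. The authors' deposited results hold 0 members with an adjusted p under 0.05 for either inhibitor. Over all genes they hold 293 higher and 301 lower under PD, and 180 higher and 406 lower under YZ9. At an unadjusted p under 0.05, DESeq2 found 2 members under YZ9, limma-trend 1 and the authors' deposited results 2 (Pfkl and Pfkp). All of these found 0 under PD. The share of all genes at that unadjusted limit was not counted for these results, so nothing is read from these member counts. The median log2 fold change of the 8 members was 0.145 under PD and -0.073 under YZ9, beside 0.004 and 0.002 for all tested genes. Both comparisons with control use the same 2 control libraries, and the inhibitors were given at different doses.

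**Figure D1:**
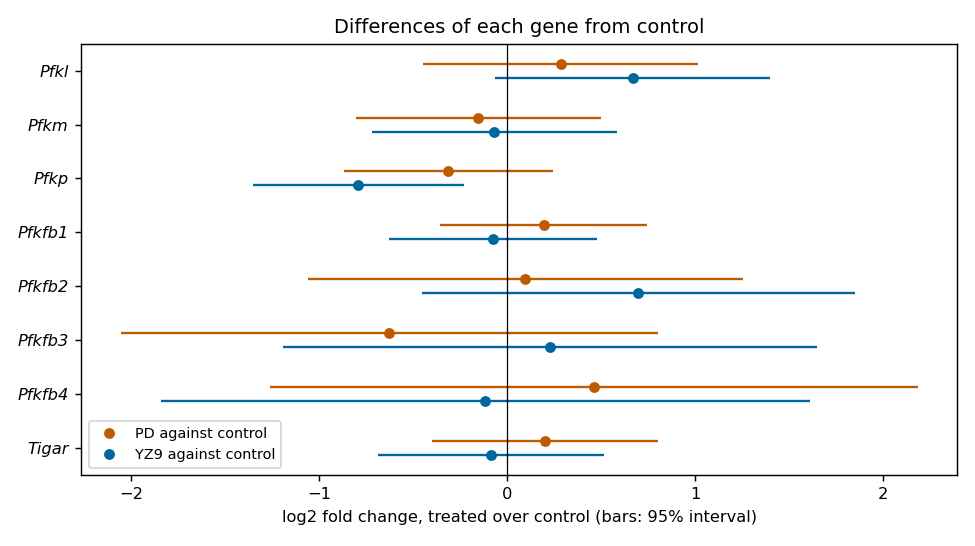
Log2 fold change of each gene (points) with its 95% interval from edgeR (bars), for PD against control and YZ9 against control, 2 libraries per group. The interval of Pfkp under YZ9 runs from -1.35 to -0.23, and the intervals of every other gene and comparison drawn cross 0.

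Pfkl encodes the liver-type subunit of phosphofructokinase, which is also made in many other tissues. Its level was 103.5 and 76.5 CPM in the controls, 76.6 and 142 CPM under PD, and 148.5 and 137 CPM under YZ9. Both YZ9 libraries lay above both controls, whereas PD replicate 1 lay at the level of control replicate 2 and PD replicate 2 at the level of the YZ9 libraries. The means were 90.0 ± 19.1 CPM in the controls and 142.9 ± 7.92 CPM under YZ9 (SD, n = 2), a log2 fold change of 0.67 (SE 0.31, 95% interval -0.07 to 1.4, adjusted p = 0.471). Under PD the mean was 109.5 ± 46.5 CPM, a log2 fold change of 0.28 (95% interval -0.45 to 1.01, adjusted p = 0.855). That value was -0.23 without PD replicate 2, the female library, and 0.66 without PD replicate 1. The authors' deposited table gives Pfkl a log2 fold change of 0.69 under YZ9 and an adjusted p of 0.133.

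Pfkp encodes the platelet-type subunit, common in embryonic and proliferating cells. It was at 186 and 154 CPM in the controls, 122 and 151.5 CPM under PD, and 117 and 79.2 CPM under YZ9. Every treated library was below both controls, and YZ9 replicate 2 was the lowest of the 6. The mean was 170.1 ± 22.6 CPM in the controls and 98.3 ± 27.0 CPM under YZ9 (SD, n = 2, adjusted p = 0.313, log2 fold change -0.79 with SE 0.23 and 95% interval -1.35 to -0.23). Under PD it was 137 ± 20.7 CPM (log2 fold change -0.31, 95% interval -0.87 to 0.24, adjusted p = 0.749). PD and YZ9 differed by 0.48 on the log2 scale, with an interval from -0.08 to 1.04 (adjusted p = 0.501). That difference was 0.205 without YZ9 replicate 2 and 0.78 without YZ9 replicate 1. In male libraries alone, with 1 library of each inhibitor, it was 0.044. Over 15 alternatives Pfkp under YZ9 stayed between -1.09 and -0.52, with adjusted p from 0.0443, when no genes were filtered out, to 0.852. It was -0.52 without YZ9 replicate 2, the female library, and -1.09 without YZ9 replicate 1.

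Exons of Pfkp share 748 bases, 5.58% of its merged exon length, with Pitrm1, a mitochondrial peptidase gene on the opposite strand. The library kit keeps no strand, so reads of that stretch cannot be assigned to either gene. Pitrm1 was at 238 and 200.4 CPM in the controls, 194 and 390.2 CPM under PD and 177.5 and 148 CPM under YZ9, so it was lower under YZ9 as well (adjusted p = 0.643, log2 fold change -0.43 with SE 0.32).

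Pfkm encodes the muscle-type subunit. It was at 29.6 and 21.8 CPM in the controls, 18.9 and 27.3 CPM under PD, and 23.1 and 26.0 CPM under YZ9, and all 3 groups overlapped. The log2 fold changes were -0.16 under PD (95% interval -0.81 to 0.50) and -0.07 under YZ9 (95% interval -0.72 to 0.58), and both intervals lie within a 2-fold change in either direction. The sign turned without control replicate 1 in both comparisons, without PD replicate 1 for PD and without YZ9 replicate 1 for YZ9. Skeletal muscle markers were at or near 0 CPM in all 6 libraries, whereas the cardiac markers summed to 1496 to 5123 CPM. The part of either cell type in the Pfkm level was not tested. A non-coding gene on the same strand, Gm26513, covers 10.21% of the Pfkm exon length, but it had only 0 to 7 counts per library.

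Because both genes of a ratio come from the same library, the ratio of Pfkl to Pfkp CPM does not depend on the scaling between libraries. It was 0.556 and 0.497 in the controls, 0.627 and 0.940 under PD, and 1.27 and 1.73 under YZ9. The 3 groups did not overlap in this ratio, and Pfkp had more reads than Pfkl in all control and PD libraries but fewer in both YZ9 libraries. This ratio was chosen after its values were seen, so it is given as a description. An exact permutation test gave p = 0.333 in each comparison. With 2 libraries against 2 it cannot give a smaller value, so it decides nothing. The mean ratio, on the log scale, was 2.82 times the control ratio under YZ9 and 1.46 times under PD. The sum of the endoderm and epithelial markers, given above, was higher in all 4 treated libraries than in both controls. Cldn6, Epcam, Cdh1, Foxa1 and Foxa2 each followed it, though Foxa1 and Foxa2 were only at 0.627 to 1.25 CPM under YZ9. Sox17 overlapped, at 9.67 and 4.44 CPM in the controls, 6.32 CPM in PD replicate 2 and 7.96 CPM in YZ9 replicate 2. The part of these markers in the ratio was not tested.

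The sum of the 3 subunit genes was 319 and 252.5 CPM in the controls, 218 and 321 CPM under PD, and 289 and 242 CPM under YZ9, so the groups overlapped. Per kilobase of merged exons, Pfkl made up 40.5% and 38.9% of the summed subunit level in the controls, 43.7% and 52.3% under PD, and 58.7% and 60.0% under YZ9. Pfkp made up 36.3% and 39.0% in the controls, 34.7% and 27.7% under PD, and 23.1% and 17.2% under YZ9. Pfkm kept a share of 18.2% to 23.2% in every library. The share of Pfkp rests on the length used: its merged exons span 13401 bases and its longest coding transcript 4145. With the coding transcript, Pfkp held 55.6% ± 2.00 of the sum in the controls and 33.3% ± 5.49 under YZ9, and Pfkl 32.4% ± 1.44 and 54.5% ± 3.11 (SD, n = 2).

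**Figure D2:**
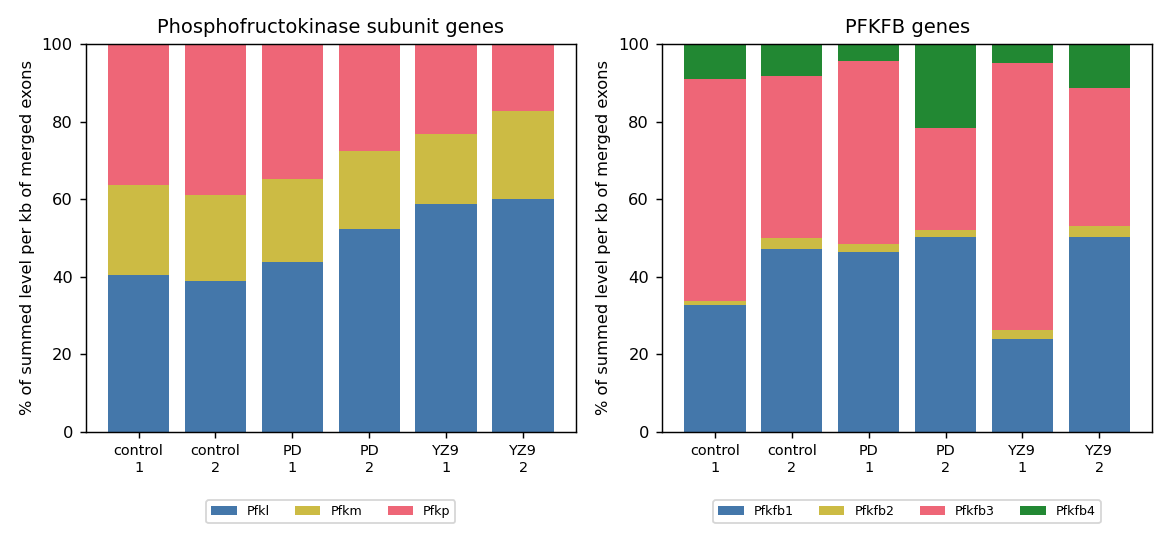
Share of each gene in the summed level of its family, in percent of CPM per kilobase of merged exons, for each library (bars); groups and replicate numbers stand under the bars. In the left panel Pfkl takes 38.9% to 40.5% of the subunit level in the controls and 58.7% to 60.0% under YZ9; in the right panel Pfkfb3 varies from 26.3% to 68.8% between libraries.

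The upstream sequences of Pfkl and Pfkp are shown because, among the 3 subunit genes, these did not overlap the controls under YZ9, Pfkl above and Pfkp below. RefSeq promoter windows in GRCm38.p6 were found for all 8 genes, 17 windows in all, and the 250 bases before the annotated start are given 5′ to 3′ on the gene's strand. Capitals mark ACGTG and GCGTG, the core letters to which hypoxia-inducible factors bind, searched on both strands. CACGTG, the E-box letters, contains ACGTG on both strands and is counted within it.
Pfkl, chr10:78009808-78010057, minus strand: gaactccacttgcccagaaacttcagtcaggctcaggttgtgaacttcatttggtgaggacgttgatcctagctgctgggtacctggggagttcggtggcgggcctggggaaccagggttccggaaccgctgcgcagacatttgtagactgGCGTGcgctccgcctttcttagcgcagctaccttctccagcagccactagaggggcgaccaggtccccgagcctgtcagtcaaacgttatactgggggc
Pfkp, chr13:6648772-6649021, minus strand: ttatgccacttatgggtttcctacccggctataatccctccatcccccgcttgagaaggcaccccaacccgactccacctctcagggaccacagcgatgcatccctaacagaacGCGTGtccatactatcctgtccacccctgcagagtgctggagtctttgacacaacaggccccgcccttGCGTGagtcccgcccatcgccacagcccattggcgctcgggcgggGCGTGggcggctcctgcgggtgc
The Pfkl window holds 1 GCGTG and the Pfkp window 3, and neither holds ACGTG. Of all 32851 windows of this length, 38.6% hold at least 1 of the 2 cores, 16.6% hold ACGTG and 28.2% GCGTG. A match is a description of letters, not a binding site.

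Pfkfb3 encodes the enzyme that YZ9 is known to inhibit. Its level was 70.5 and 33.2 CPM in the controls, 42.7 and 24.4 CPM under PD, and 91.9 and 29.7 CPM under YZ9. In every group the library numbered 1 was well above the library numbered 2, by 2.12 times in the controls, 1.75 times under PD and 3.09 times under YZ9, so all groups overlapped. The means were 51.9 ± 26.4 CPM in the controls, 33.6 ± 12.9 CPM under PD and 60.8 ± 43.9 CPM under YZ9 (SD, n = 2). The log2 fold change under YZ9 was 0.23 (SE 0.59, 95% interval -1.19 to 1.65, adjusted p = 0.910), an interval wider than 2-fold in both directions. It was -0.79 without YZ9 replicate 1, -0.22 without control replicate 2 and 0.87 without control replicate 1. Under PD the log2 fold change was -0.63 (SE 0.60, 95% interval -2.05 to 0.80, adjusted p = 0.829), and it was 0.014 without control replicate 1. Replicate 1 was male and replicate 2 female in both inhibitor groups, while both controls were male. With sex as a covariate the log2 fold change was -0.06 under PD and 0.64 under YZ9 (adjusted p = 0.982 and 0.587 in edgeR). The sum of the blood and endothelial markers was lower in replicate 1 than in replicate 2 of every group, and the sum of the cardiac markers higher. Not every marker followed its sum. The endothelial genes Cdh5 and Tie1 were higher in replicate 1 of every group, and Runx1 slightly so under YZ9. The cardiac genes Myl7 and Mef2c were lower in replicate 1 of the controls. The part of these markers in the Pfkfb3 values was not tested.

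Of the tested genes, 179 (1.15%) had replicate 1 at least 1.75 times above replicate 2 in all 3 groups, a limit set at the smallest ratio of Pfkfb3 itself after it was seen, so the share is a description. By the rule for similar genes, the Pearson correlation with Pfkfb3 in log2(CPM + 0.1) over the 6 libraries, the 5 closest of 8666 genes were Cfap43, Klhl21, Dmwd, Fam171a1 and Brpf1, with r of 0.993, 0.992, 0.991, 0.987 and 0.987. Klhl21, which encodes an adaptor of a ubiquitin ligase, was at 28.1 and 15.5 CPM in the controls, 20.0 and 14.2 CPM under PD, and 36.5 and 15.1 CPM under YZ9. Brpf1, which encodes a scaffold of histone acetyltransferase complexes, was at 19.3 and 13.5 CPM, 14.5 and 11.6 CPM, and 19.6 and 12.2 CPM. With 6 points that share libraries and so many genes searched, such values describe these libraries only. Among the other members above the level limit of that search, r with Pfkfb3 was 0.083 for Pfkl, -0.006 for Pfkm, 0.198 for Pfkp, 0.082 for Tigar and -0.767 for Pfkfb1.

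**Figure D3:**
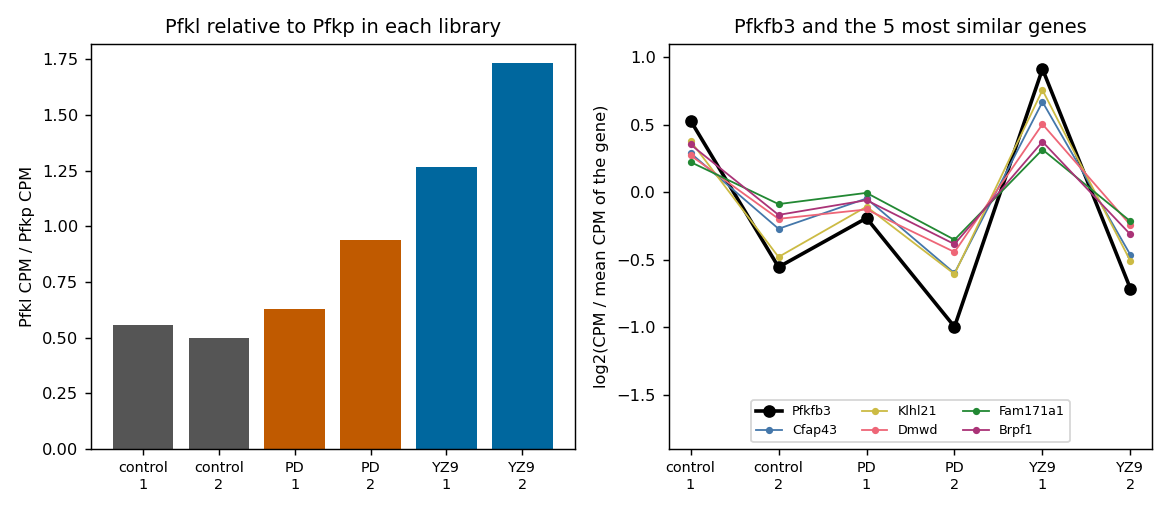
Left, ratio of Pfkl CPM to Pfkp CPM in each library (bars), which is 0.497 to 0.940 in control and PD libraries and 1.27 to 1.73 under YZ9. Right, log2 of the CPM over the gene's own mean for Pfkfb3 and the 5 genes most like it; lines link the points of a gene, and replicate 1 lies above replicate 2 in each group.

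Windows lie at both RefSeq starts of Pfkfb3, far apart in the gene, and they are shown because the counts are not split by start.
Pfkfb3 upstream start, chr2:11553930-11554179, minus strand: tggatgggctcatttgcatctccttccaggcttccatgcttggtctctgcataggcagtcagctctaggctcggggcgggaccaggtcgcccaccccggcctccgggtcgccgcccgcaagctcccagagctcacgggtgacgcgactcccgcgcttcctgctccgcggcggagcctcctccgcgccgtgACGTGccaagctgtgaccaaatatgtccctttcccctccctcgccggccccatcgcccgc
Pfkfb3 downstream start, chr2:11502091-11502340, minus strand: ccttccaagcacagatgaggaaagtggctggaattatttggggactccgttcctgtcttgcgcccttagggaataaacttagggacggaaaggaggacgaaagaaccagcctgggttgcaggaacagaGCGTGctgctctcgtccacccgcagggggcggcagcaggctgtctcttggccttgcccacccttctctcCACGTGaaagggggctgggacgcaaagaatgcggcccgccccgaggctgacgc
The upstream window holds 1 ACGTG and 24 CpG pairs. The downstream window holds 1 GCGTG, 1 E-box and 14 CpG pairs, whereas the median over all windows is 6 pairs. The E-box letters are present in 6.0% of all windows. The window of Tigar holds neither core.

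Pfkfb4 encodes a related enzyme that is also known to rise in hypoxia. It was at 7.08 and 4.18 CPM in the controls, 2.54 and 12.96 CPM under PD, and 4.30 and 6.07 CPM under YZ9. The PD libraries held both the lowest and the highest value of the 6, so the log2 fold change of 0.46 (SE 0.72, 95% interval -1.26 to 2.18, adjusted p = 0.916) turned to -1.15 without PD replicate 2 and was 1.20 without PD replicate 1. Both female libraries were above the male library of their group. Under YZ9 the log2 fold change was -0.12 (95% interval -1.84 to 1.61, adjusted p = 0.966), and its sign turned without control replicate 1 or YZ9 replicate 1. With sex as a covariate the value was -0.59 under PD and -0.80 under YZ9 (adjusted p = 0.830 and 0.613 in edgeR). PD replicate 2 was also the higher PD library in 14 of 21 tested HIF targets, 14 of 22 glycolysis genes, 7 of 8 pentose phosphate genes, 11 of 13 regulators, 13 of 22 p53 targets and 7808 of all 15568 tested genes. YZ9 replicate 2, in which Pfkfb4 was also the higher, was above replicate 1 in 8 of 21 HIF targets and 10 of 22 glycolysis genes. The same held for 4 of 8 pentose phosphate genes, 4 of 13 regulators, 2 of 22 p53 targets and 7709 of all 15568 tested genes.

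Pfkfb1, on the X chromosome, is known as the liver and muscle form. It was at 21.3 and 19.9 CPM in the controls, 22.3 and 24.8 CPM under PD, and 16.9 and 22.2 CPM under YZ9, the narrowest spread of the 4 PFKFB genes as a ratio of highest to lowest library. Both PD libraries lay just above both controls, with a log2 fold change of 0.19 (95% interval -0.36 to 0.74, adjusted p = 0.871). Under YZ9 it was -0.08 (95% interval -0.63 to 0.48, adjusted p = 0.925), and 0.12 without YZ9 replicate 1. In both inhibitor groups the female library was the higher. Apex2, on the opposite strand, overlaps 3.06% of the Pfkfb1 exon length.

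Pfkfb2, known as the heart form, was the rarest member, with 31 and 54 counts in the controls, 48 and 39 under PD, and 67 and 65 under YZ9. Both YZ9 libraries were above both controls, at 3.00 and 2.19 CPM against 1.16 and 2.03 CPM. The log2 fold change under YZ9 was 0.70 (SE 0.48, 95% interval -0.46 to 1.85, adjusted p = 0.621) and under PD 0.10 (95% interval -1.06 to 1.25, adjusted p = 0.977). The sign of the PD value turned without control replicate 1 or PD replicate 1. Gm29427, a gene model on the same strand that covers 17.4% of the Pfkfb2 exon length, had 0 counts in all 6 libraries, and Yod1 overlaps a further 2.12% from the opposite strand. In all, 2 of 8 members did not overlap with control under PD (Pfkp and Pfkfb1), against 38.7% of tested genes, and 3 of 8 under YZ9 (Pfkl, Pfkp and Pfkfb2), against 45.7%. Both shares are below that of all genes. Between PD and YZ9, Pfkp, Pfkfb1 and Pfkfb2 did not overlap, 3 of 8 against 43% of all genes.

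Compared per length within a library, Pfkfb3 and Pfkfb1 made up most of the PFKFB level. Per kilobase of merged exons, Pfkfb3 held 57.4% and 41.9% of the summed PFKFB level in the controls, 47.2% and 26.3% under PD, and 68.8% and 35.7% under YZ9. Pfkfb1 held 32.7% and 47.2%, 46.3% and 50.3%, and 23.8% and 50.2%. Pfkfb4 held 4.35% to 21.6% and Pfkfb2 0.986% to 2.75%. For each of the 4 genes the range of both inhibitor groups overlapped that of the controls. The order of Pfkfb3 and Pfkfb1 rests on the length used. By the longest coding transcript, Pfkfb1 held 47.7% ± 10.7 and Pfkfb3 43.9% ± 11.1 in the controls (SD, n = 2). The summed PFKFB level was 79.7 ± 28.9 CPM in the controls, 66.6 ± 3.92 CPM under PD and 88.1 ± 39.5 CPM under YZ9 (SD, n = 2).

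Tigar was at 21.4 and 24.9 CPM in the controls, 31.1 and 22.0 CPM under PD, and 23.5 and 20.0 CPM under YZ9, and all groups overlapped. The log2 fold changes were 0.20 under PD (SE 0.25, 95% interval -0.40 to 0.80, adjusted p = 0.880) and -0.09 under YZ9 (SE 0.25, 95% interval -0.69 to 0.51, adjusted p = 0.920). Both intervals stay within a 2-fold change in either direction. The PD value was -0.07 without PD replicate 1, and the YZ9 value 0.038 without YZ9 replicate 2 and 0.022 without control replicate 2.

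In control explants Pfkl led the levels per kilobase of merged exons, at a mean of 13.5 CPM per kilobase (11.5 and 15.5 in the 2 libraries), followed by Pfkp at 12.7 (11.5 and 13.9). Pfkm followed at 7.70 (6.54 and 8.86), Pfkfb3 at 6.86 (4.39 and 9.32), Tigar at 6.33 (5.85 and 6.80) and Pfkfb1 at 5.13 (4.95 and 5.31). The rarest were Pfkfb4 at 1.16 (0.857 and 1.45) and Pfkfb2 at 0.220 (0.160 and 0.280). Pfkl and Pfkp overlapped, as did Pfkm with Pfkfb3 and Pfkfb3 with Tigar, while Pfkp and Pfkm, Tigar and Pfkfb1, Pfkfb1 and Pfkfb4, and Pfkfb4 and Pfkfb2 were apart. Under PD the order on this scale was Pfkl at 16.4, Pfkp at 10.2, Tigar at 7.26, Pfkm at 6.92, Pfkfb1 at 5.86, Pfkfb3 at 4.44, Pfkfb4 at 1.59 and Pfkfb2 at 0.235, and the 4 genes from Tigar to Pfkfb3 each overlapped the next. Under YZ9, Pfkl at 21.4 (20.6 and 22.2) stood apart from Pfkfb3 at 8.04, which overlapped Pfkm at 7.34, and Pfkp came next at 7.33. Tigar at 5.95, Pfkfb1 at 4.86, Pfkfb4 at 1.06 and Pfkfb2 at 0.358 closed the order. By the longest coding transcript, Pfkp led in the controls at 41.0 and stood apart from Pfkl at 24.1, whereas under YZ9 Pfkl led at 38.3 and stood apart from Pfkp at 23.7 CPM per kilobase.

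**Figure D4:**
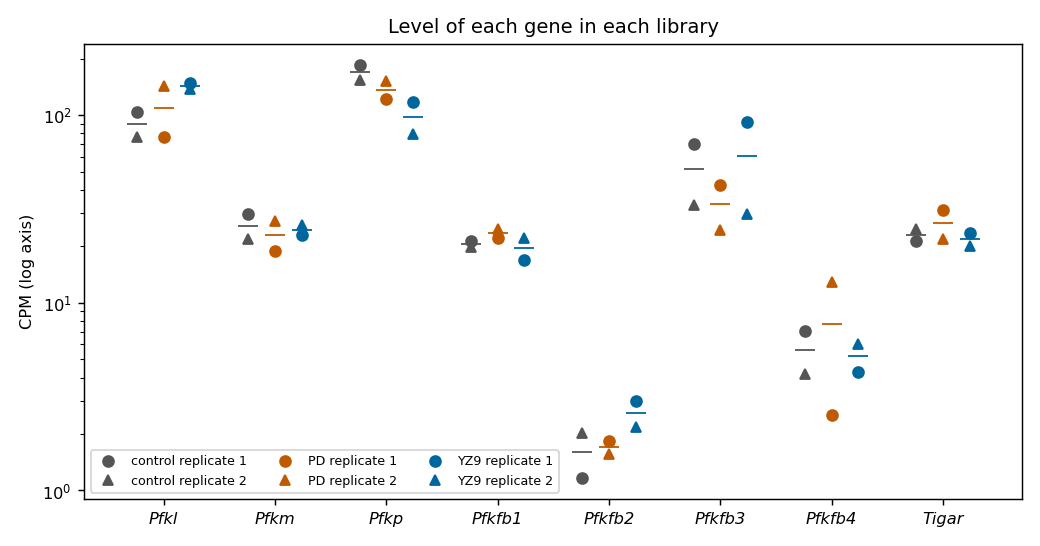
CPM of each gene (log axis) in each library; circles are replicate 1, triangles replicate 2, short lines group means, and colours the 3 groups. Both YZ9 libraries lie above both controls for Pfkl and below both for Pfkp, and circles lie above triangles for Pfkfb3 in all 3 groups.

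The rest of glycolysis, from a list without the 8 genes, was set beside them. Of 22 tested glycolysis genes, transporters included, 0 had an edgeR adjusted p under 0.05 with PD or with YZ9. Of all tested genes, 0.0964% and 0.00642% passed. The median log2 fold changes of the 22 were 0.10 and -0.09. The smallest p under PD was in Pgam2, a phosphoglycerate mutase of muscle, at 14.7 ± 2.20 CPM in the controls and 3.29 ± 0.672 CPM under PD (adjusted p = 0.106, log2 fold change -2.16 with SE 0.33). Under YZ9 it was in Slc2a3, a high-affinity glucose transporter, at 368 ± 122 CPM in the controls and 1558 ± 218 CPM under YZ9 (adjusted p = 0.134, log2 fold change 2.08 with SE 0.32). Under PD, Slc2a3 was at 1540 ± 545 CPM (adjusted p = 0.106, log2 fold change 2.06 with SE 0.32), and PD and YZ9 differed by -0.02 on the log2 scale with a 95% interval of -0.76 to 0.72 (adjusted p = 0.990). Of 8 tested pentose phosphate genes, 0 passed in either comparison with control, beside those same shares of all genes. All 8 of these had positive log2 fold changes under PD and 7 of 8 under YZ9. Their medians were 0.19 and 0.26, beside 0.004 and 0.002 for all tested genes. The smallest p under PD was in Tkt, a transketolase (edgeR adjusted p = 0.634, log2 fold change 0.32 with SE 0.18). Under YZ9 it was in Pgls, which opens the lactone of that pathway (edgeR adjusted p = 0.483, log2 fold change 0.43 with SE 0.21).

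Of 21 tested targets of hypoxia-inducible factors, the class to which Pfkfb3 and Pfkfb4 are known to belong, 0 passed in either comparison. Of all tested genes, 0.0964% passed under PD and 0.00642% under YZ9. Their median log2 fold change was 0.12 under PD and 0.16 under YZ9. Bnip3, a mitophagy receptor, was at 28.2 ± 9.86 CPM in the controls and 70.4 ± 25.6 CPM under PD (adjusted p = 0.256, log2 fold change 1.32 with SE 0.38). Egln3, an oxygen sensor that marks these factors for decay, was at 5.56 ± 0.230 and 2.48 ± 0.223 CPM under YZ9 (adjusted p = 0.299, log2 fold change -1.16 with SE 0.33). Between PD and YZ9 the smallest p was in P4ha2, a collagen prolyl hydroxylase (adjusted p = 0.291, log2 fold change 0.91 with SE 0.26).

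Of 22 tested p53 targets, the class to which Tigar is known to belong, 0 passed in either comparison, against 0.0964% and 0.00642% of all tested genes. Their median log2 fold change was -0.39 under PD and -0.34 under YZ9, beside 0.004 and 0.002 for all tested genes. Of the 22, 17 and 18 were negative and 5 and 4 positive. The value of Tigar was 0.20 and -0.09, and its intervals, given above, include the list medians. Trp53inp1, which promotes p53 activity, was at 116 ± 2.38 CPM in the controls and 66.7 ± 8.54 CPM under PD (adjusted p = 0.166, log2 fold change -0.80 with SE 0.17). Fas, a death receptor gene, was at 52.1 ± 6.19 and 23.2 ± 2.86 CPM under YZ9 (adjusted p = 0.172, log2 fold change -1.17 with SE 0.20), and its level under PD was 67.1 ± 8.42 CPM. Of 13 genes for upstream regulators, 0 passed in either comparison, beside those same shares of all genes, with medians of -0.11 and 0.13. Myc, a transcription factor that drives glycolytic genes, was at 94.3 ± 8.05 CPM in the controls and 48.6 ± 2.94 CPM under PD (adjusted p = 0.184, log2 fold change -0.96 with SE 0.21). Prkab2, a subunit of the energy sensor AMPK, which phosphorylates PFKFB enzymes, was at 108 ± 4.29 and 66.4 ± 5.42 CPM under YZ9 (adjusted p = 0.309, log2 fold change -0.71 with SE 0.21).

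The members lie on 8 chromosomes of GRCm38 (GENCODE M21). Pfkl (ENSMUSG00000020277) lies on chromosome 10, 77986947 to 78010083, Pfkm (ENSMUSG00000033065) on chromosome 15, 98092589 to 98132451, and Pfkp (ENSMUSG00000021196) on chromosome 13, 6579768 to 6648777. Pfkfb1 (ENSMUSG00000025271) lies on chromosome X, 150588229 to 150643878, Pfkfb2 (ENSMUSG00000026409) on chromosome 1, 130689182 to 130729253, and Pfkfb3 (ENSMUSG00000026773) on chromosome 2, 11471433 to 11554077. Pfkfb4 (ENSMUSG00000025648) lies on chromosome 9, 108991778 to 109032228, and Tigar (ENSMUSG00000038028) on chromosome 6, 127085116 to 127109557. Pfkfb3 has the most annotated transcripts, 21, of which 12 are coding, and Tigar the fewest, 2.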

How the data were processed

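The submitters' processing notes name CASAVA 1.8.2, STAR 2.7.9a, DESeq2 1.40.1 and GRCm38. How reads were counted, on which annotation and with which filters, is not stated in them. Each deposited table holds whole-number counts per gene and library. Normalized columns hold a signal, each count divided by 1 size factor per library by the authors. The deposited log2 fold changes, p-values, adjusted p-values and Wald score are the authors' DESeq2 results. Control counts were identical in both tables, so the tables were joined.

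Counts were filtered with filterByExpr (minimum count 10, minimum total 15), scaled by TMM and tested in R 4.3.3 with edgeR 4.0.16 (quasi-likelihood, all 6 libraries, 2-sided, Benjamini-Hochberg over 15568 genes, threshold 0.05; common dispersion 0.101). The SE was derived from F and the fold change, and 95% intervals from the t quantile. Libraries held 21253194 to 27810161 counts. Replicates differed by a mean chi-square of 51.9 to 90.7 per gene, against about 1 for sampling alone, so their spread sets the precision. The pipeline was tested on simulated data.

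The 8 members and the gene lists were chosen with earlier results of these data known. The naming rule took all members, per list and comparison up to 4 genes past the threshold or else the smallest p, and the 5 genes most like Pfkfb3 (mean CPM at least 10). TMM CPM were used for levels, and gene lengths came from GENCODE M21 (GRCm38). Alternatives were DESeq2 1.42.0, limma-trend (limma 3.58.1, prior count 3), size factors, filters, library subsets, a replicate block, sex, and gene length. Ero1l of the HIF list matched no symbol. Protein sequences were not used here.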

Additional observations from a re-analysis of the deposited data

How the results depend on the processing

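With 2 libraries a group, the intervals of Pfkfb4 under both inhibitors, of Pfkfb3 under YZ9 and of Pfkfb2 under PD spanned more than 2-fold in both directions. The narrower intervals of other members do not mean that a 2-fold change would have passed. Slc2a3, with a log2 fold change of 2.06 and SE 0.32 under PD, had an edgeR adjusted p of 0.106. That 0 members passed therefore does not exclude changes of 2-fold. Of 360 alternative values of 24 member results, 333 kept direction and side of the threshold, 1 newly passed (Pfkp with YZ9, -0.78, adjusted p = 0.0443 without a filter, in a range of 0.0443 to 0.852) and 26 changed sign. The cause was not tested. With sex as a covariate Pfkfb4 was -0.59 with PD and -0.80 with YZ9, Pfkfb3 -0.06 and 0.64, and Pfkl with PD 0.04, while Tigar with YZ9 was 0.092. Male libraries alone leave 1 library of PD and 1 of YZ9 beside 2 controls, so the spread comes from the controls only and each lone library is assumed to vary like them. There Pfkfb3 with YZ9 was 0.84, Pfkl with PD was -0.23, Pfkfb4 with PD -1.15 and against YZ9 -0.78, and Tigar with YZ9 0.038. Leaving out 1 library, the log2 fold change with PD ranged from -0.23 to 0.66 for Pfkl, -0.44 to 0.087 for Pfkm, -0.25 to 0.55 for Pfkfb2, -1.08 to 0.014 for Pfkfb3, -1.15 to 1.20 for Pfkfb4 and -0.07 to 0.43 for Tigar. With YZ9 it ranged from -0.27 to 0.17 for Pfkm, -0.27 to 0.12 for Pfkfb1, -0.79 to 0.87 for Pfkfb3, -0.45 to 0.31 for Pfkfb4 and -0.20 to 0.038 for Tigar. Between PD and YZ9 it ranged from -0.39 to 0.16 for Pfkm, -1.47 to 0.17 for Pfkfb3 and -1.04 to 1.32 for Pfkfb4. Over all genes, edgeR called 15, 1 and 19 genes for PD against control, YZ9 against control and PD against YZ9. These became 712, 556 and 601 without a filter, 604, 509 and 508 with DESeq2, 124, 122 and 173 with sex, and 428, 183 and 132 in male libraries, with that same limit. With 4 libraries alone, YZ9 gave 5 and PD against YZ9 0, and limma-trend gave 34 for the latter. Leaving out 1 library gave 0 to 33, 0 to 9 and 0 to 35. Replicate numbers are not stated to pair libraries, and deviations of same-numbered libraries correlated at -0.098 (control with PD), 0.166 (control with YZ9) and 0.353 (PD with YZ9). The replicate block gave 1, 3 and 12 calls, and Pfkfb3 was -0.57 with PD (adjusted p = 0.440) and 0.13 with YZ9. Mean family shares over 6 libraries moved with gene length. By the longest coding transcript Pfkm was at 11.9% and Pfkp at 45.5%, from 21.3% and 29.7%. Without length correction Pfkm was at 8.97%, Pfkp at 49.3% and Pfkfb1 at 29.6%, from 41.8%.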

Other observations

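The neighbours of Tigar and Pfkfb1 were measured in the same libraries. Ccnd2, the cyclin D2 gene, lies 15605 bases from Tigar on chromosome 6 and on the same strand. It fell under PD (edgeR adjusted p = 0.0466, log2 fold change -2.19 with SE 0.23), from a mean of 520.1 ± 61.1 CPM to 114 ± 17.6 CPM (SD, n = 2), while the value of Tigar was 0.20 with SE 0.25. The call on Ccnd2 is lost when control replicate 1 or control replicate 2 is left out, since edgeR then called 0 genes for PD against control. Ccnd2 and Tigar were not compared by a test of their difference.

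Alas2, which starts heme synthesis in red cells, lies 17591 bases from Pfkfb1 on the X chromosome. It was at 25.4 and 47.6 CPM in the controls, 2.61 and 83.2 CPM under PD, and 0.582 and 6.27 CPM under YZ9, beside a range of 16.9 to 24.8 CPM for Pfkfb1 over the same 6 libraries. Under YZ9 its edgeR adjusted p was 0.473 for a log2 fold change of -3.39. The blood and endothelial marker sum of these libraries ran from 135 to 5879 CPM.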
